A study of Mus musculus with 3 samples.

Results

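The Rab GTPases are the largest family of small GTPases that mark membranes inside the cell. On the arrays used here, 55 of 27962 gene names followed the Rab naming pattern (Rab, a number and at most a letter and a further digit), and these 55 genes are described. The 53 that could be tested leaned towards lower RNA in embryonic stem (ES) cells than in mouse embryonic fibroblasts (MEF). Of them 20 fell by at least 2-fold in ES cells, among them Rab27b, Rab32, Rab40b, Rab39b, Rab34 and Rab33b, and 3 rose, namely Rab39, Rab26 and Rab25.

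A Rab protein is a switch: bound to GTP it sits on a membrane and recruits effectors such as tethers, motors and lipid enzymes, and bound to GDP it is carried through the cytosol by a GDP dissociation inhibitor. Guanine nucleotide exchange factors (GEF) load the GTP, GTPase activating proteins (GAP) of the TBC family end the active state, and a geranylgeranyl transferase with its escort protein attaches the lipid that holds the Rab in the membrane. Each compartment has its own Rabs, from Rab1 between endoplasmic reticulum and Golgi to Rab5 on early endosomes, Rab11 on recycling endosomes, Rab7 on late endosomes and Rab3 and Rab27 on secretory vesicles.

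The study compared gene expression of mouse ES cells with that of MEF on 3 two-colour Agilent arrays. Every array carried total RNA of 1 of 3 ES cell replicates in the green dye (Cy3) beside MEF RNA in the red dye (Cy5). The ES cells, which are pluripotent cells of the early embryo, were grown untreated in Knockout DMEM with fetal bovine serum and leukemia inhibitory factor, and MEF, a primary culture of connective tissue cells, in DMEM with fetal bovine serum. Neither strain, embryo stage nor ES cell line is given in the labels, and in 1 place the design text names the Cy5 RNA mix2 where the sample labels give MEF. Nothing states that the ES replicates came from separate cultures, so each p-value rests on the spread of these 3 samples alone, possibly a technical one. The MEF RNA is 1 control sample, and its own spread does not enter. The dyes were not swapped, so a dye effect on a probe cannot be told apart from a difference between the cells, and in such bulk RNA fewer cells of a type and less RNA per cell cannot be told apart either.

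Each array held 43379 gene spots. In the ES cell channel 68.6% to 70.6% of them were well above background and in the MEF channel 68.2% to 74.0%. The arrays correlated at 0.998 in their log2 ratios over genes, though genes are no independent replicates. Marker genes matched the labels: all 10 pluripotency markers rose in ES cells, with Pou5f1 at a log2 ratio of 3.75, and all 10 fibroblast markers fell, with Col1a1 at -8.10. Genes of another cell type were also present in the MEF channel, since all 9 macrophage markers fell in ES cells. Their summed normalised intensity was 10542 to 11052 in ES cells and 484949 to 520530 in MEF, and none was below background in either channel.

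Intensities are normalised fluorescence of the probe in each channel, in arbitrary units, and the log2 ratio is ES cells over MEF, so that a negative value means less RNA in ES cells. A gene was called when limma's moderated test gave a Benjamini-Hochberg adjusted p under 0.05 over 19681 genes and the log2 ratio was at least 1 in size. Among the tested Rab genes 43.4% were called, against 42.7% of all genes tested, so that the share called was near the background. The directions differed: 3 Rab genes (5.66%) were higher in ES cells, against 20.3% of all genes, and 20 (37.7%) were lower, against 22.4% of all genes. The median log2 ratio was -0.76 over the Rab genes, with quartiles of -1.27 and -0.09, and -0.05 over all genes, with quartiles of -0.87 and 0.79. A negative ratio was found for 41 Rab genes (77.4%) and for 51.9% of all genes. The adjusted p was under 0.05 for all 53 tested Rab genes and for 95.4% of all genes without a minimum fold, so the minimum fold sets which genes are called. With each array centred on its median in place of loess, the median of all genes moved to 0.11 and that of the Rab genes to -0.48. Then 14 of the 53 Rab genes were lower, against 19.3% of all genes. The main fit gave 20 of 53, against 22.4%, so the Rab genes stood closer to all genes with median centring.

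**Figure D1:**
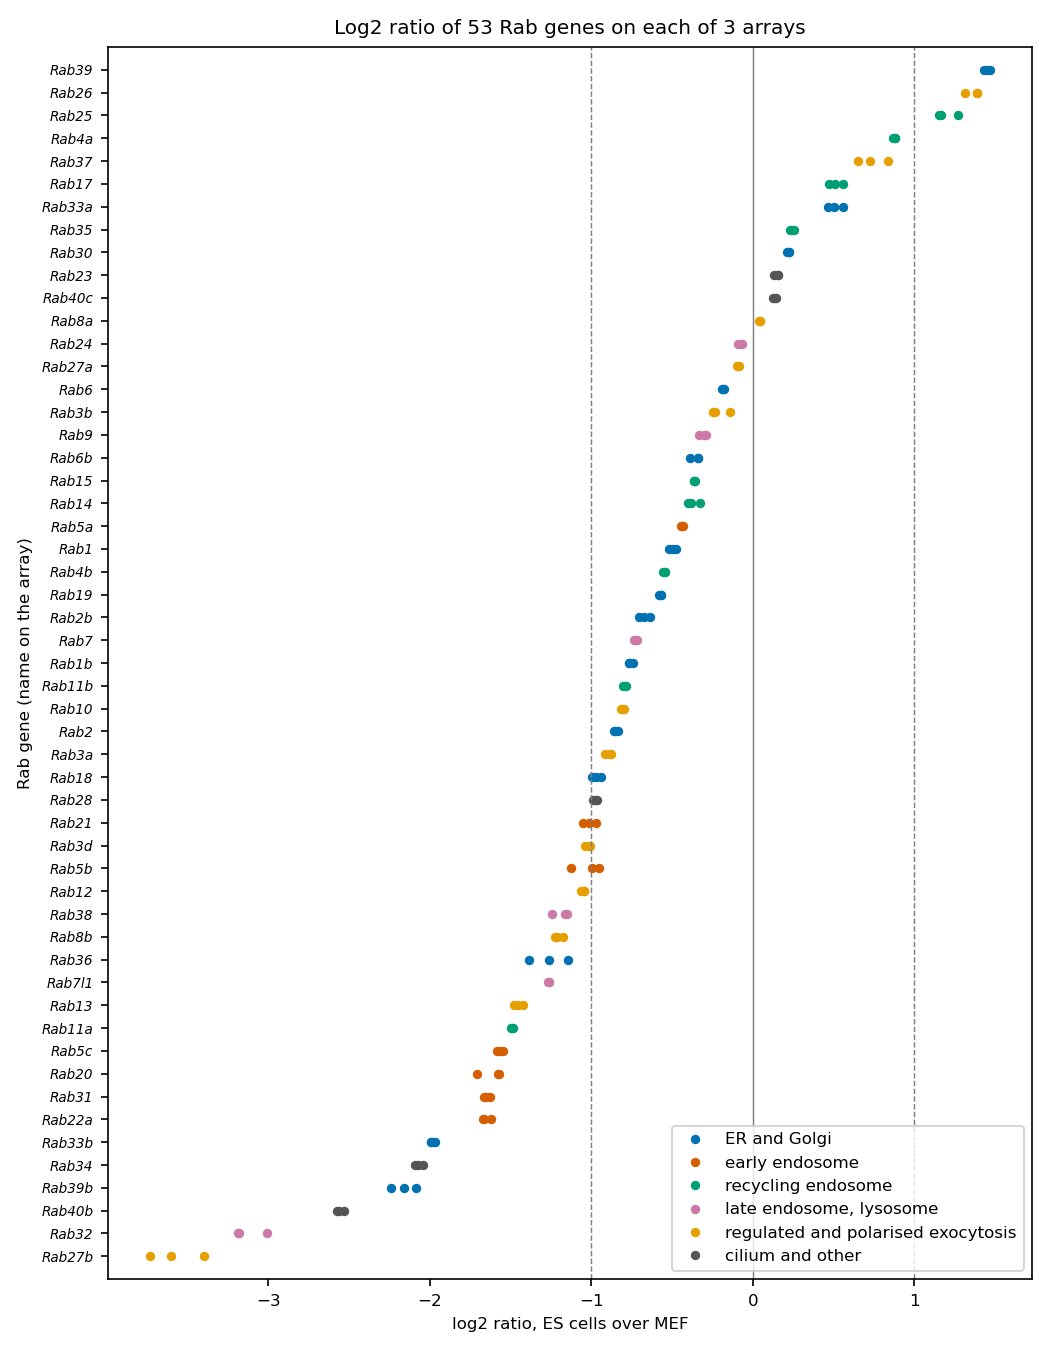
Log2 ratio (ES cells over MEF, x axis) of the 53 tested Rab genes on each of the 3 arrays, 1 point per array, ordered by the mean and coloured by the compartment of the Rab. Dashed lines mark a ratio of 1 in size. The 3 arrays lie close together for most genes, and 41 of the 53 genes have a negative mean.

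The 3 points of a gene lay close together. The median SD over the arrays was 0.0208 for Rab genes and 0.0285 for all genes tested. With so small an SD, separate ES and MEF values of a called gene largely follow from the minimum fold. Such separation is described below and is no further support for a call. In both channels, 50 of the 53 genes were well above background on all arrays. In MEF, Rab39 was well above background on none of the 3 arrays and Rab25 on 2 of them, and Rab36 was not well above background in ES cells on any array. Rab39 and Rab25 thus entered the test through the ES cell channel alone, and Rab36 through the MEF channel alone. For each, that was the channel in which it was higher. The remaining members, Rab3c and Rab9b, were not well above background on all arrays in either channel and were not tested. Their ratios of -0.23 and -0.07 are given as values only.

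Rab39 and its X-linked relative Rab39b were called in opposite directions. Rab39, linked to phagosome maturation and autophagy, had intensities of 326, 350 and 344 in the ES cell channel of replicates 1, 2 and 3, against 121, 126 and 126 in MEF. Every ES value lay above every MEF value, but MEF stayed at background level, so the test set a signal against background. The log2 ratio was 1.45 ± 0.018 (SD, n = 3; limma adjusted p = 4.27e-07), which is at least 2.73-fold higher in ES cells. The background correction used here shrinks ratios of dim probes, and with the scanner software's processed signals the ratio was 2.96. Rab39b, a neuronal Rab whose human counterpart is mutated in an X-linked intellectual disability, had intensities of 165, 150 and 137 in ES cells, against 702, 668 and 648 in MEF. The order of the channels was thus turned round on all 3 arrays. Its ratio was -2.16 ± 0.077 (SD, n = 3; limma adjusted p = 1.60e-06), or 4.48-fold lower in ES cells, and -3.20 with processed signals. The 2 ratios differed by 3.61 ± 0.087 (SD over 3 arrays), the widest gap among the 20 pairs of related Rabs compared on their brightest probes. Both genes had only 1 probe, so neither ratio could be set beside that of another probe.

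Rab25 and Rab11a were the other such pair. Rab25 (Rab11c), the member of the Rab11 branch found mainly in epithelia, serves apical recycling. Its intensities were 301, 294 and 312 in ES cells, against 125, 131 and 140 in MEF. The groups did not overlap, and the ratio was 1.20 ± 0.065 (SD, n = 3; limma adjusted p = 6.09e-06), or 2.29-fold higher in ES cells, and 2.20 with processed signals. Rab11a, the general Rab of the recycling endosome, had intensities of 14979, 15122 and 15738 in ES cells, against 41940, 42738 and 44332 in MEF. All 3 arrays put ES cells below MEF, at a ratio of -1.49 ± 0.0068 (SD, n = 3; limma adjusted p = 2.99e-07), or 2.81-fold lower. The ratios of Rab25 and Rab11a differed by 2.69 ± 0.059, and those of Rab25 and the uncalled Rab11b (-0.79) by 1.99 ± 0.059. The other tested probes of Rab11a gave -0.69 and -0.79, below the minimum fold, so the opposite call of this pair rests on the brightest probe. Epithelial markers moved with Rab25: all 9 that were tested rose in ES cells, at a summed intensity of 81168 to 82749 in ES cells and 6104 to 6493 in MEF. Their part in the Rab25 result was not tested.

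The promoters of these 4 genes and of Rab32 and Rab40b, which were among the lowest, are shown to set the sequences before the start sites of oppositely called relatives side by side. They are the 250 bases before the annotated start, 5′ to 3′ on the minus strand, from RefSeq on GRCm38.p6. Capitals mark matches to motifs searched on both strands. The GC box was searched as GGGCGG. The TATA box, which lies close to the start of some genes, was searched as TATAAA. The E-box was searched as CACGTG. The cyclic AMP response element was searched as TGACGTCA. None of the 4 motifs overlaps another in these windows. Rab39 lies at chr9:53706233-53706482, Rab39b at chrX:75578232-75578481, Rab25 at chr3:88548280-88548529, Rab11a at chr9:64737757-64738006, Rab32 at chr10:10558208-10558457 and Rab40b at chr11:121388252-121388501.
Rab39: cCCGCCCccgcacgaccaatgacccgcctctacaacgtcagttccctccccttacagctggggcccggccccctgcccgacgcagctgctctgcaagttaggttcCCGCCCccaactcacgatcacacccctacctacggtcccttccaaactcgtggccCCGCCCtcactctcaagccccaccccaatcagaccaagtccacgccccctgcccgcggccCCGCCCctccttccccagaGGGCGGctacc
Rab39b: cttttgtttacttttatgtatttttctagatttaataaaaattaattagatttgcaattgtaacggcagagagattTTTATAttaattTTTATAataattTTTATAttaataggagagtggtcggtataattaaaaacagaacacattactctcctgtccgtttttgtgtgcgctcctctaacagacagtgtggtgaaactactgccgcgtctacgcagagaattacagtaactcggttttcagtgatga
Rab25: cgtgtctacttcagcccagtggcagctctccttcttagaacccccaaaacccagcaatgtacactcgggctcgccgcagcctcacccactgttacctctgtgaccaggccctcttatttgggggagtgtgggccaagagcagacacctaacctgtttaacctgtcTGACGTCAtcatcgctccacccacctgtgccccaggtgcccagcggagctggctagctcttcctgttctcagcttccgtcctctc
Rab11a: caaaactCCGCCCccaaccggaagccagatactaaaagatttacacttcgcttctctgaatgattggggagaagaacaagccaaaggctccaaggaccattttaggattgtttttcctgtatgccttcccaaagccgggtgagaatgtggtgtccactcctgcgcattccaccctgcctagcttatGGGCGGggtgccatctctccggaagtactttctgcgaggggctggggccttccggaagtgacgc
Rab32: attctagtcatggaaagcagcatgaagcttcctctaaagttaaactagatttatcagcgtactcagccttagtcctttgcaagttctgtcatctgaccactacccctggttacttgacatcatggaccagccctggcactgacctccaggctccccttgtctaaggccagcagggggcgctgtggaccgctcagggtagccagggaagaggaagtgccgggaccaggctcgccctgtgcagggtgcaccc
Rab40b: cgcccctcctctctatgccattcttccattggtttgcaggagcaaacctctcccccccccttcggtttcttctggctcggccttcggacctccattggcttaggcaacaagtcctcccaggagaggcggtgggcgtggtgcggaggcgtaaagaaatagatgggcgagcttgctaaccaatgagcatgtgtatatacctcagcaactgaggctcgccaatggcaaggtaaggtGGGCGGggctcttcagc

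The windows of the Rab39 pair differed widely in base composition. Rab39 had 68.8% G and C with 5 GC boxes, and Rab39b 31.6% with no GC box. Rab39b held 3 matches to the TATA box letters, all on the opposite strand and none close to the start. Rab25 held 1 cyclic AMP response element and no GC box, and Rab11a 2 GC boxes. Rab40b held 1 GC box, and these letters were not found in the Rab32 window. Of the 46 Rab genes with a RefSeq promoter, 34 (73.9%) held a GC box, against 45.8% of the 17492 protein-coding genes with a promoter. The Rab windows were also richer in G and C, at a median of 60.8%, against 55.6% over all protein-coding windows. The part of base composition in the motif shares was not tested. The TATA box letters were found, on either strand and anywhere in the window, in 3 Rab genes (6.52%; Rab39b, Rab3b and Rab7), against 13.7% of all. An E-box was found in 5 (10.9%), against 7.61% of all, and the cyclic AMP response element in 2 (4.35%; Rab25 and Rab5a), against 2.20% of all. The GC box occurred in 1 of 2 Rab genes called higher, in 14 of 17 called lower and in 17 of 25 not called. A match describes the letters and shows no bound factor. Rab27b, Rab38, Rab4a, Rab30, Rab37, Rab36, Rab26, Rab18 and Rab2 had no promoter in the table.

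The probes of close relatives share bases, as the array's own probe for Rab25 shows beside the Rab11b probe it resembles most. The Rab25 probe lies at chr3:88656153-88656542 and the Rab11b probe at chr17:31822646-31823401, both on the minus strand of build mm7 as given in the files. Capitals mark bases that are the same in both when they are aligned without gaps, which holds for 36 of 49 aligned bases.
Rab25: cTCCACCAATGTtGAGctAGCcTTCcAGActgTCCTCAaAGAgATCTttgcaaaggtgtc
Rab11b: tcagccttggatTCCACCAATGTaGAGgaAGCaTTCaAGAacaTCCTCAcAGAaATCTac

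These probes gave ratios of 1.20 for Rab25 and -0.38 for Rab11b. The Rab11b probe shown is the dimmer of its pair, and its brightest probe gave -0.79. How much Rab11 RNA binds to the Rab25 probe was not tested.

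The pairs compared are close relatives in sequence, and each difference is between log2 ratios of the brightest probes, not levels. On every array, 10 of the 20 pairs differed by at least 1, and 5 pairs differed by less than 0.5. With 3 arrays an exact test cannot pass 0.05, so no p is given for a pair. Rab27a, needed for melanosome and granule transport, stood at -0.09, and its relative Rab27b at -3.58, a difference of 3.49 ± 0.17. The size of this difference depends on the probes, since others gave 1.29 for Rab27a and -1.18 for Rab27b. Rab40c stood at 0.14 and Rab40b at -2.56. Rab33a stood at 0.51 and Rab33b at -1.98. Rab4a stood at 0.88 and Rab4b at -0.55, a difference of 1.43 ± 0.0044, with neither past the minimum fold. Rab8a (0.04) and Rab8b (-1.20) differed by 1.24 ± 0.024. This gap holds for the brightest probes only, since the second tested probe of Rab8a gave -0.83. At the other end, the early endosomal relatives Rab22a and Rab31 differed by -0.0060 ± 0.039, and Rab1 and Rab1b, Rab2 and Rab2b, Rab6 and Rab6b, and Rab3a and Rab3d by 0.13 to 0.26 in size. The match of Rab22a and Rab31 holds for their brightest probes. Other tested probes gave -0.86 and -0.69 for Rab22a and -1.28 for Rab31. The remaining close pairs were likewise compared on brightest probes only. Their other tested probes gave -0.23 for Rab1, -1.16 for Rab1b, -1.57 for Rab2 and -0.65 for Rab2b. They gave -1.19 for Rab6, -1.08 for Rab6b and -0.63 for Rab3d, and Rab3a had 1 probe.

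**Figure D2:**
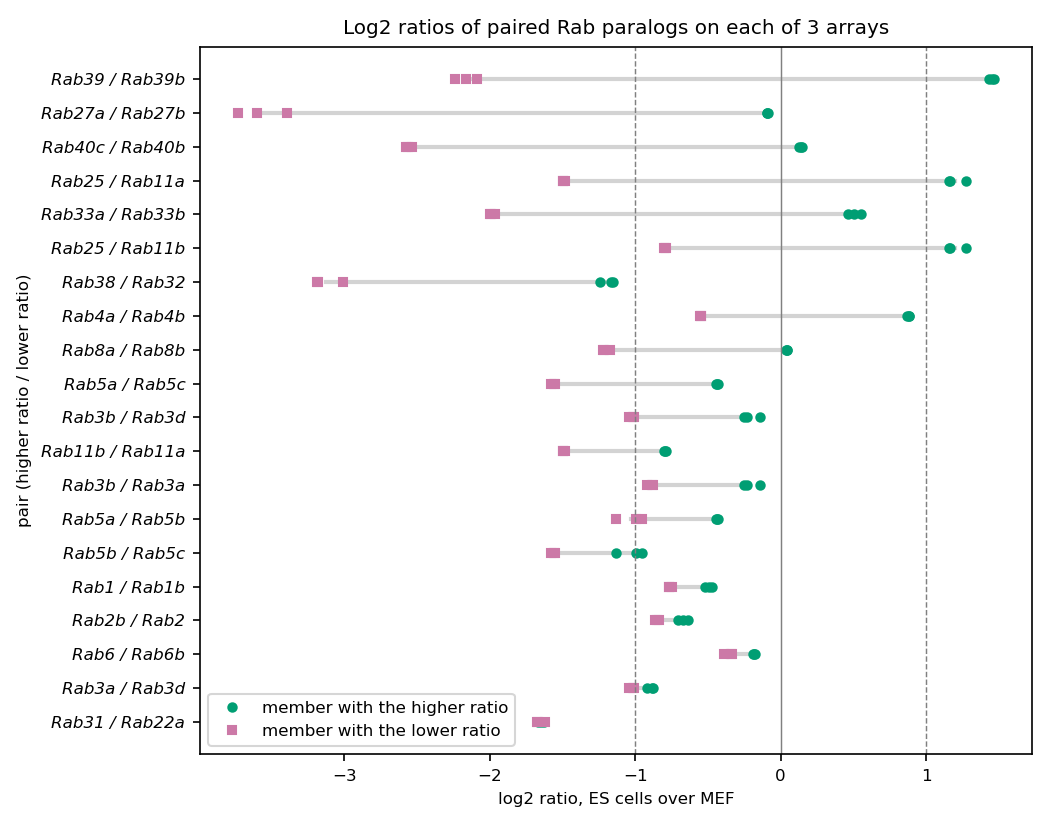
Log2 ratio (ES cells over MEF, x axis) of both members of 20 pairs of related Rab genes on each of 3 arrays, the member with the higher ratio as circles and the one with the lower ratio as squares. Grey bars join the means. Only Rab39 with Rab39b and Rab25 with Rab11a have 1 member beyond each dashed line, and Rab22a and Rab31 coincide on their brightest probes.

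Among the 14 Rabs of endoplasmic reticulum and Golgi, 1 was higher in ES cells and 3 were lower, with a median of -0.62. Besides Rab39 and Rab39b, the lower ones were Rab33b and Rab36. Rab33b, a Golgi Rab that binds the autophagy protein Atg16l1, had intensities of 804, 813 and 847 in ES cells, against 3206, 3178 and 3367 in MEF. The groups were far apart, and the ratio was -1.98 ± 0.016 (SD, n = 3; limma adjusted p = 2.28e-07), or 3.96-fold lower in ES cells. Rab36, related to Rab34, was at background in ES cells (114, 101 and 119) and at 275, 265 and 264 in MEF, at least 2.27-fold lower (limma adjusted p = 3.24e-05), with a log2 ratio of -1.27 ± 0.12 (SD, n = 3), and -2.66 with processed signals. Its second tested probe gave -0.53. On their brightest probes the Rabs of the basic secretory route were not called: Rab1 stood at -0.50, Rab1b at -0.76, Rab2 at -0.85, Rab2b at -0.67, Rab6 at -0.18, Rab6b at -0.36 and Rab18, known from lipid droplets, at -0.97. For several of them another tested probe was called lower, at -1.16 for Rab1b, -1.57 for Rab2, -1.19 for Rab6, -1.08 for Rab6b and -1.05 for Rab18. Rab2 was called lower as the mean of its probes, at -1.21. Rab19 stood at -0.57, Rab30 at 0.22 and Rab33a at 0.51. The background for this and the following compartment counts was 20.3% of all genes higher and 22.4% lower.

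The 7 early endosomal Rabs all had negative ratios, with a median of -1.56, and 6 were called lower. Rab5a, which drives fusion of early endosomes, was the exception, with intensities of 17543, 17577 and 17579 in ES cells, against 23650, 23789 and 23967 in MEF and a ratio of -0.44. Its relative Rab5c had 5892, 5607 and 5589 in ES cells, against 17246, 16507 and 16728 in MEF. ES values were all below MEF values for both genes, but the Rab5c ratio of -1.56 ± 0.017 (limma adjusted p = 3.47e-07) was past the minimum fold and that of Rab5a was not. Rab22a (-1.65), Rab31 (-1.65) and Rab20 (-1.62) fell to a like degree, and Rab21 (-1.01), which moves integrins, was just past the threshold. Rab31 serves transport between Golgi and endosomes, and Rab20 is known from phagosomes of macrophages. Rab5b was called lower on its brightest probe (-1.03), but another probe was called higher (1.16) and the remaining one gave 0.54. The call of Rab21 was lost in 6 of 16 alternatives, among them median centring (-0.74), processed signals (-0.90) and the fit without replicate 2 (-0.99). That of Rab5b was lost without replicate 2 (-0.97) and with median centring (-0.91), and the mean over the probes of Rab5b was 0.22. Rab5c, Rab20, Rab31 and Rab22a kept their calls under each of these changes, with Rab22a at -1.07 as the mean of its probes. The dimmer probes of Rab22a, at -0.86 and -0.69, were not called.

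Of 9 recycling Rabs, 1 was higher (Rab25) and 1 lower (Rab11a), with a median of -0.36. The others were Rab4a, which returns cargo quickly to the surface, at 0.88, Rab17, another epithelial Rab, at 0.51, Rab35, which acts at the plasma membrane and in cytokinesis, at 0.24, Rab15 at -0.36, Rab14 at -0.37, Rab4b at -0.55 and Rab11b at -0.79. For Rab4a the intensities of 14067, 13887 and 14344 in ES cells lay above those of 7636, 7618 and 7785 in MEF, a 1.84-fold difference. It passed the minimum fold with the scanner software's processed signals, at 1.01.

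Of the 6 tested Rabs of late endosomes, lysosomes and related organelles, all had negative ratios, with a median of -0.96, and 3 were lower. Rab32, which works on melanosomes and other lysosome-related organelles and at mitochondria, had intensities of 1446, 1417 and 1574 in ES cells, against 13167, 12880 and 12657 in MEF. The channels were separated on every array, and the ratio was -3.13 ± 0.10 (SD, n = 3; limma adjusted p = 1.17e-06), or 8.73-fold lower in ES cells. Rab38, its partner in pigment granules, fell too, at -1.19 ± 0.052, and Rab7l1 (Rab29), the Rab linked to the kinase Lrrk2, at -1.27 ± 0.0049, though Rab7l1 was not called with median centring (-0.99). Rab7, the Rab of late endosomes, stood at -0.73, Rab9 at -0.31 and Rab24 at -0.08. The macrophage markers given above moved in the same direction as Rab32, Rab38 and Rab20, and their part in these results was not tested. Of 5 melanocyte markers, Tyr and Dct were too dim to test, Mlana and Pmel were higher in ES cells and Mitf was not called, with a summed intensity of 7239 to 7653 in ES cells and 2601 to 2707 in MEF.

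Of the 12 tested Rabs of regulated and polarised exocytosis, 1 was higher and 5 were lower, with a median of -0.85. Rab27b, which docks secretory vesicles and multivesicular bodies at the plasma membrane, had the lowest ratio of all 53. Its intensities were 178, 150 and 134 in ES cells, against 1878, 1827 and 1776 in MEF. ES values lay below MEF values on every array, and the ratio was -3.58 ± 0.17 (SD, n = 3; limma adjusted p = 3.19e-06), or 11.9-fold lower in ES cells, and -4.58 with processed signals. A second probe, for which ES cells were not above background on any array, gave -1.18. Rab26, found on secretory granules and synaptic vesicles, had intensities of 1163, 1113 and 1140 in ES cells, against 467, 426 and 436 in MEF. ES values were higher on all 3 arrays, at 1.36 ± 0.041 (SD, n = 3; limma adjusted p = 1.39e-06), or 2.57-fold. The call rests on this probe alone. A second Rab26 probe (0.40) was not above background in either channel on any array and was not tested.

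Other exocytic Rabs were more moderate. Rab13, a Rab of tight junctions, fell at -1.45, Rab8b at -1.20, Rab12 at -1.05 and Rab3d, a granule Rab of secretory cells, at -1.02. The calls of Rab12 and Rab3d were each lost in 4 of 16 alternatives, with values of -0.96 to -0.60 for Rab12 and -0.95 to -0.76 for Rab3d, and that of Rab8b was lost with median centring, at -0.97. Rab3a, the synaptic vesicle Rab, stood at -0.89, Rab3b at -0.21, Rab10, which carries glucose transporter vesicles, at -0.80, Rab8a, a Rab of polarised and ciliary transport, at 0.04, Rab27a at -0.09 and Rab37 at 0.74. A further probe of Rab27a, also in both channels above background on all arrays, was called higher at 1.29. The second probe of Rab8a, likewise above background throughout, gave -0.83 and was not called. Rab37 was called higher with the processed signals, at 1.29.

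The 5 Rabs of cilia and other roles had 2 lower members and a median of -0.97. Rab40b, which joins a ubiquitin ligase through its SOCS box, had intensities of 131, 134 and 146 in ES cells, against 757, 797 and 859 in MEF. The groups did not overlap, at -2.56 ± 0.022 (SD, n = 3; limma adjusted p = 1.94e-07), or 5.88-fold lower, and -3.47 with processed signals. Rab34, needed for cilium formation and for lysosome position near the Golgi, had intensities of 19594, 21618 and 20537 in ES cells, against 83548, 89085 and 86628 in MEF. It too was separated on every array, at -2.07 ± 0.025 (SD, n = 3; limma adjusted p = 2.77e-07), or 4.20-fold lower, and its second tested probe gave -1.71. Rab28, a Rab of ciliary photoreceptors, stood at -0.97, Rab23, a negative regulator of hedgehog signalling, at 0.15 and Rab40c at 0.14. Rab28, Rab18 and Rab3a were the uncalled members closest to the threshold, and Rab21, Rab3d and Rab5b the called members closest to it.

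**Figure D3:**
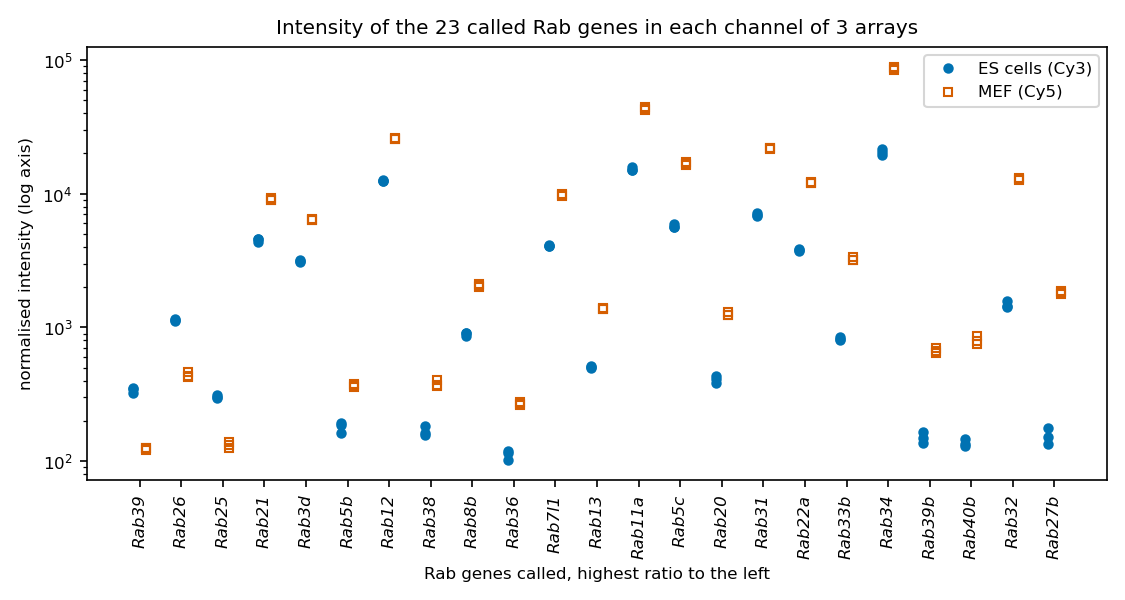
Normalised intensity (log axis) of the 23 called Rab genes in ES cells (Cy3, filled circles) and in MEF (Cy5, open squares) on 3 arrays, with the highest ratio at the left. In each gene all 3 ES values lie on 1 side of the 3 MEF values, which largely follows from the minimum fold by which the genes were called. Levels of different genes come from different probes and are not comparable.

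Several Rab genes had more than 1 probe, and these did not always give the same ratio. Of 30 genes with at least 2 tested probes, 17 had the same call on all of them, 12 had a call on some probes only, and Rab5b had calls in both directions. The median distance between the highest and the lowest probe of a gene was 0.57. It was widest for Rab27b (2.40), Rab5b (2.18), Rab18 (1.76), Rab10 (1.52) and Rab27a (1.38). For Rab10, 3 of 4 probes were positive (0.17, 0.22 and 0.72) and the brightest was at -0.80. Of the 17 genes with the same call, Rab31, Rab34, Rab40b, Rab8b and Rab27b were called lower on every tested probe. The others of the 17, Rab10 among them, were called on none.

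**Figure D4:**
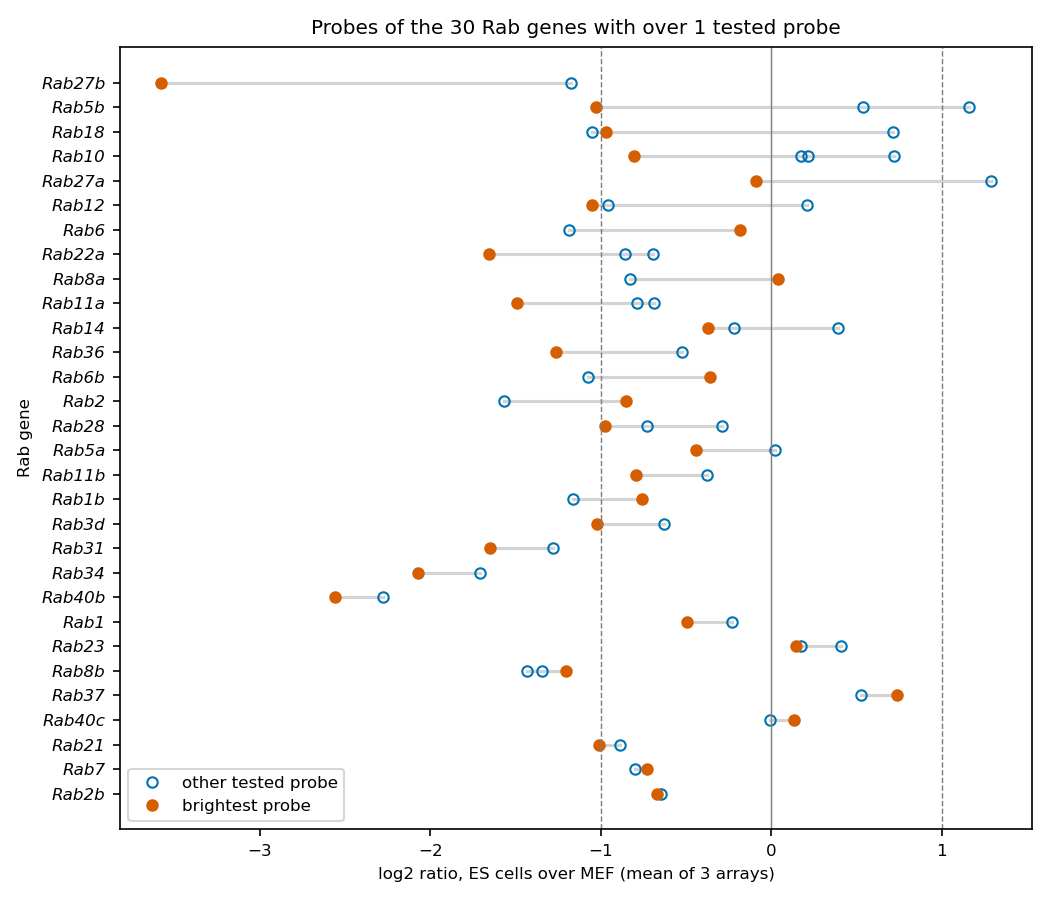
Log2 ratio (ES cells over MEF, mean of 3 arrays, x axis) of each tested probe of the 30 Rab genes with more than 1, with the brightest probe filled and the others open. Genes run from the widest distance between probes at the top to the narrowest at the bottom. Rab5b has probes beyond both dashed lines.

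The genes that act on Rabs were counted in 4 lists of 139 genes, of which 135 were tested. Of these, 15 (11.1%) were higher in ES cells, against 20.3% of all genes, and 33 (24.4%) were lower, against 22.4% of all genes. The median was -0.25, and -0.05 over all genes. The shares over all genes are also the background for the counts of each list below. The gene Dennd5a stands on the arrays as Rab6ip1 and is in the lists of exchange factors and effectors, and it was counted once in the total.

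Of the 8 genes of prenylation and recycling, 3 were higher and 1 lower, with a median of 0.11. The higher ones were both subunits of the geranylgeranyl transferase, Rabggtb at 1.37 ± 0.020 and Rabggta at 1.12 ± 0.0084, and the escort protein Chml at 1.15 ± 0.034 (SD, n = 3; limma adjusted p = 5.15e-07, 5.67e-07 and 1.61e-06). The lower one was Rabac1, a Golgi protein that binds prenylated Rabs, at -1.55 ± 0.034 (limma adjusted p = 7.17e-07).

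Of 42 tested exchange factors, 3 were higher and 11 lower, with a median of -0.25. Dennd2c (2.95) and Dennd1b (1.17) were among those higher in ES cells. Rin2 (-2.69), Rab3il1 (-2.68) and Rin1 (-2.29) were lowest. Rin1 and Rin2 act on Rab5, and Rab3il1 acts on Rab8. Of 35 tested GTPase activators, 3 were higher, Sgsm1 (1.57), Tbc1d8 (1.47) and Tbc1d10c (1.27), and 6 were lower, with Tbc1d8b (-2.86), Tbc1d2b (-2.22) and Tbc1d9b (-1.88) as the lowest. Their median was -0.19. Tbc1d8 was well above background in MEF on 1 of the 3 arrays. The background for the counts of both lists was 20.3% of all genes higher and 22.4% lower.

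Of 51 tested effectors, 6 were higher and 16 lower, with a median of -0.51. The 3 highest were relatives known from synaptic release sites, where Rims1 and Rims2 bind Rab3. They were Rims3 at 3.16 ± 0.057, Rims1 at 2.40 ± 0.11 and Rims2 at 2.06 ± 0.082 (SD, n = 3; limma adjusted p = 3.31e-07, 2.97e-06 and 2.16e-06). Of the Rab3 genes themselves, Rab3d was lower, Rab3a and Rab3b were not called and Rab3c was not tested. The lowest were Sytl2 at -3.49 ± 0.16, Sytl4 at -2.73 ± 0.055 and the Rab11 effector Rab11fip5 at -2.17 ± 0.027. Sytl2 and Sytl4 bind Rab27, and their intensities averaged 334 and 124 in ES cells, against 3726 and 826 in MEF. In ES cells Sytl4 was well above background on 2 of the 3 arrays. Eea1, a Rab5 effector on early endosomes, and the kinase Lrrk2 were picked out after their values were seen. Eea1 fell to 0.354 of the MEF level, and Lrrk2 was lower at a log2 ratio of -2.05. Neural markers gave no single direction: of 6 tested, Nefl was higher, Map2 and Gfap were lower, and the summed intensity was 13874 to 14406 in ES cells and 13250 to 13257 in MEF. Of 4 tested endothelial markers, 2 were higher and 2 lower, at 2940 to 3003 in ES cells and 1881 to 1993 in MEF.

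**Figure D5:**
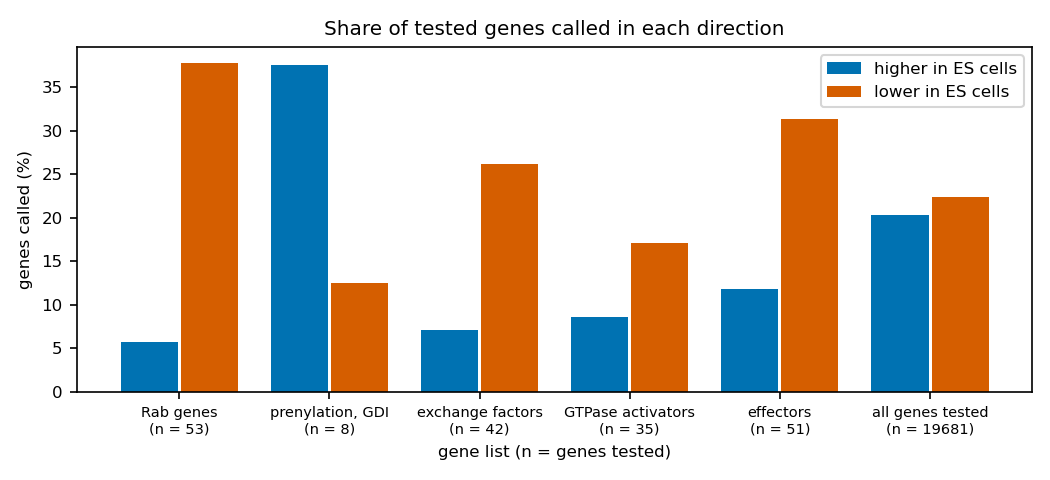
Share of tested genes (y axis, percent) called higher or lower in ES cells, for the Rab genes, the 4 lists of genes that act on them and all genes tested. Rab genes were called higher in 5.66% and lower in 37.7%, and all genes in 20.3% and 22.4%.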

How the data were processed

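RNA of 3 ES cell replicates (Cy3) was set against MEF RNA (Cy5) on 3 arrays. Images were read by the authors with Agilent Feature Extraction 9.5.3.1, per the file headers, which give probe coordinates on mm7. The deposited intensities of spots and of their surroundings are pixel brightness with nothing subtracted. The scanner software's processed intensities, also deposited, had their background removed and their dyes balanced, per the file headers. A log10 ratio that the authors deposited runs as MEF over ES cells. The authors' deposited log2 value table lay within 0.01 of that ratio with its sign turned, on a log2 scale, for 85.4% to 87.8% of probes, so it runs as ES cells over MEF. Its column medians were 0.213, 0.0859 and -0.143, so it is not centred, and its treatment of the remaining probes is not known.

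Mean signals were corrected with normexp (offset 50, which shrinks ratios of dim genes) and normalized by loess, with control spots at weight 0, in limma 3.58.1 under R 4.3.3. Outlier spots, 117 to 144 on an array, were dropped, and repeated spots averaged. Probes stayed (29502 of them) when 1 of the channels was well above background on all 3 arrays, and the brightest kept probe stood for its gene name. The mean ratio was tested against 0 with lmFit and eBayes, with Benjamini-Hochberg adjustment. Median spot signals were 398 to 421 in ES cells and 381 to 391 in MEF, and the number of arrays limits the precision. On simulated data of 29502 probes, all 50 probes at each true log2 ratio of -3, -1.5, 1.5 and 3 were called. None of 29302 unchanged probes was called. The changed probes all lay well past the minimum log2 ratio of 1 in size. The simulation therefore cannot show how genes near that threshold are called, and no conclusion about dim probes is drawn from it.

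A bound ("at least") was set for genes below background in a channel on every array, against the higher of the lowest signal well above background and the gene's own. Full statistics are given for the highest and lowest 6 called Rab genes (only 3 were higher) and the oppositely called pairs, and the 3 highest and 3 lowest called genes are named from each list. Some listed genes are not reported here by name. Members, lists and pairs were chosen with earlier results of these data known. In all, 16 alternatives were tried, in background correction, normalization, filter, probe choice, outlier spots, gene names, threshold, value source and the array left out.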

Additional observations from a re-analysis of the deposited data

How the results depend on the processing

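Counts of called Rab genes moved with the threshold, the centring and the probe choice. Lower Rab genes were 14 with median centring (4 higher), 15 with the mean over probes and 17 with processed signals and with the authors' deposited value table, and lower genes acting on Rabs 25 with median centring. The shares over all genes moved too, to 25.5% higher and 24.7% lower with processed signals, against 20.3% and 22.4% in the main fit. A count given here without such a share does not show a change particular to the Rab genes. Of the Rab genes, 12 (22.6%) were higher and 41 (77.4%) lower with no minimum fold, against 45.9% and 49.5% of all genes, and 5 and 31 with limma's test against a log2 ratio of 0.5. The genes acting on Rabs gave 43 higher and 86 lower with no minimum fold, and 23 and 50 in that test, and oppositely called pairs were 7 and 4. Higher Rab genes were 5 with the processed signals and 5 with the authors' deposited value table. Where both channels had to be above background, Rab39, Rab25 and Rab36 were not tested, which left 1 higher Rab gene and 0 oppositely called pairs. The mean over probes left 1 such pair. The median Rab ratio was -0.68 with processed signals, -0.73 with an offset of 0, -0.48 with median centring, -0.73 with no filter, -0.78 with both channels above background, -0.60 with the mean over probes and -0.64 with the deposited value table. It ranged from -0.77 to -0.76 with 1 array left out, when lower Rab genes were 18 to 20. Signs turned for Rab5b (0.22), Rab10 (0.076), Rab27a (0.60) and Rab8a (-0.39) with the mean over probes, for Rab24 (0.20), Rab27a (0.085), Rab3b (0.0094) and Rab6 (0.033) with median centring, and for Rab24 with processed signals (0.031) and the deposited value table (0.071). Rab5b was the only called gene among them.

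Over the 53 genes and 16 alternatives, 766 results kept their direction and their side of the threshold, 20 lost their call, 49 gained one and 10 turned sign. Lost calls were those of Rab21 (6), Rab12 (4), Rab3d (4), Rab5b (2), Rab11a, Rab36, Rab7l1 and Rab8b (1 each). Ratios of dim genes depended on the background method: with processed signals Rab39 stood at 2.96, Rab25 at 2.20, Rab36 at -2.66, Rab39b at -3.20, Rab40b at -3.47 and Rab27b at -4.58. With the mean over probes Rab11a stood at -0.99. The causes were not tested. No paired analysis was possible because there is 1 group of ratios, each of which already sets ES cells against MEF within an array, so no further block could be fitted. Signals near background limit Rab39, Rab25 and Rab36. The ES signals of Rab27b, Rab39b and Rab40b were dim too, though well above background on all arrays, so the size of their ratios is limited as well.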

Other observations

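Some Rab genes stand on the arrays under other names and so lie outside the naming pattern. Rab7b, a relative of Rab7 found on late endosomes and known from macrophages, was lower in ES cells at a log2 ratio of -3.21 ± 0.0038 (SD, n = 3; limma adjusted p = 1.66e-07), beside Rab7 at -0.73. Rab43 stood at -0.82, Rab42 at -0.38 and Rab44 at 0.84, none past the minimum fold. A clone that now carries the name Rab11b was lower at -1.55, beside -0.79 and -0.38 for the probes named Rab11b.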
